A study of Homo sapiens with 6 samples.

Results

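The replication-dependent histone genes were examined in LX-2, a cell line of human activated hepatic stellate cells, which deposit scar matrix in the liver. These are the genes that encode the bulk core histones H2A, H2B, H3 and H4 and the linker histone H1, and they were taken from the deposited table by symbol, under either their older HIST1 to HIST4 names or their current names, with pseudogenes left out. The rule found 66 genes among the 60669 rows of the table: 6 of H1, 16 of H2A, 17 of H2B, 13 of H3 and 14 of H4. The cells were wild type in the labels and were transfected for 48 h with an siRNA against ADAMTS12 (siADAMTS12, 3 libraries) or with a commercial negative control siRNA (siCTL, 3 libraries). ADAMTS12 is a secreted metalloprotease of the extracellular matrix, and the comparison asks how its depletion alters gene expression. The model is limited to 1 cell line and to 1 siRNA sequence against ADAMTS12, and nothing in the labels says that the libraries of a group came from separate cultures, and what the p-values take as error is the variation among these 6 libraries, which may be technical.

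Replication-dependent histone genes lie in clusters, carry no introns in their classical form and are transcribed mainly in S phase, when new DNA is packed into nucleosomes. Their classical mRNAs, unlike nearly all others, end without a poly(A) tail. They end a few bases after a conserved stem-loop, which the protein SLBP binds to direct processing, translation and decay. When the polymerase reads past that processing site, or when a cell uses a downstream poly(A) signal, the same gene gives a polyadenylated mRNA. A stranded poly(A) library kit was used here, so the values describe what a poly(A) selection kept of these transcripts and not the total histone mRNA of the cells.

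The stem-loop was found in GENCODE 29 transcript models of 28 of the 66 genes, and 64 of the 66 were in that annotation. This count depends on where the models end. The stem-loop lies past the coding part, so the 32 genes whose model is the coding part only could not show it. It was found in 21 of 22 genes whose model has a long run after the coding part, and in 7 of 10 with a short run. The stem-loop may therefore be present in genes where no model shows it. Its commonest core, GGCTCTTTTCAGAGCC, was shared by 15 genes, and the core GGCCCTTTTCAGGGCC by 4. The sequences below are those of genes whose values are given further on, as RNA-sense DNA on GRCh38 with the stem in capitals, so that the arms, the loop between them and the nearly constant flanks can be compared.
H2AC6 (chr6:26124664-26124689, plus strand): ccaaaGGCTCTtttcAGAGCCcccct
H2BC21 (chr1:149886183-149886208, minus strand): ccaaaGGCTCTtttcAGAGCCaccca
H4C8 (chr6:26285126-26285151, minus strand): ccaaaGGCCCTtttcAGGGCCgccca
H2BC5 (chr6:26158582-26158607, plus strand): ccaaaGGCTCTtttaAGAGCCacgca
H3C10 (chr6:27810511-27810536, plus strand): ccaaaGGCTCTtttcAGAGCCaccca
H3C6 (chr6:26225591-26225616, plus strand): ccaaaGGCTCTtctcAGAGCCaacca
H2AC11 (chr6:27133510-27133535, plus strand): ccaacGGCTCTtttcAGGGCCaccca
The cores of the first 5 were found in other genes of the family too, whereas those of H3C6 and H2AC11 were each found in 1 gene. In 6 of the 7 models shown the transcript runs on past the stem-loop, by 769 bases in H3C10, 1128 in H2AC6, 1655 in H4C8, 1729 in H2BC21, 1761 in H2AC11 and 1862 in H3C6. The H2BC5 transcript that holds the stem-loop ends 39 bases after it, and a second model of that gene does not hold it and has a run of 387 bases after the coding part.

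Values are the authors' normalized counts, and a gene was tested where its mean over the 6 libraries was at least 10. Sums over all genes ran between 30.68 and 31.42 M (1e6) in siADAMTS12 libraries and between 33.58 and 34.07 M in siCTL libraries, and these sums follow the authors' scaling, so the read depth is unknown. ADAMTS12 itself had 4083, 3449 and 3687 normalized counts in siADAMTS12 libraries, against 13709, 12235 and 13423 in siCTL libraries (log2 fold change -1.81 ± 0.07 SE, limma adjusted p = 4.81e-08), so every library went with its label. Of 6 stellate cell markers, COL1A1, ACTA2, PDGFRB and VIM were kept, of which PDGFRB (log2 fold change -0.80) and VIM (-0.55) were called lower, DES reached at most 5 and LRAT was listed at 0. Of 16 markers of other liver cells, 13 had a mean under 10 and none of the 3 kept passed the test. Their summed level was 281 to 320 in siADAMTS12 and 348 to 355 in siCTL libraries, most of it from KRT7, a keratin of bile duct cells.

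Most histone genes were at or near the bottom of the poly(A) libraries. Of the 66 genes, 11 were listed at 0 in all 6 libraries, 28 had some counts but a mean under 10, and 27 were kept for testing. Genes kept numbered 2 of 6 for H1, 6 of 16 for H2A, 11 of 17 for H2B, 5 of 13 for H3 and 3 of 14 for H4. The 39 genes that were not kept summed to only 76 to 107 normalized counts per library. The highest of them, H2BC7, had a mean of 9.83. A gene at 0 here need not be silent: some widely expressed genes, such as IPO4, were also listed at 0, and 7 of the 11 genes at 0 had at most 50% of their 50-base words to themselves. H1-1, H2AC1, H2BC1 and H4C7 were at 0 although no other annotated transcript shares their words.

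The level was held by few genes. The 10 genes with the highest mean carried 89.9% of the summed level of the family, and H2BC12 alone carried 31.2%. By class, H2B genes held 52.8% of the sum, H1 21.9%, H2A 14.8%, H4 6.46% and H3 4.02%. A nucleosome holds the core histones in equal number, and these shares are of RNA that passed poly(A) selection, not corrected for transcript length.

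**Figure D1:**
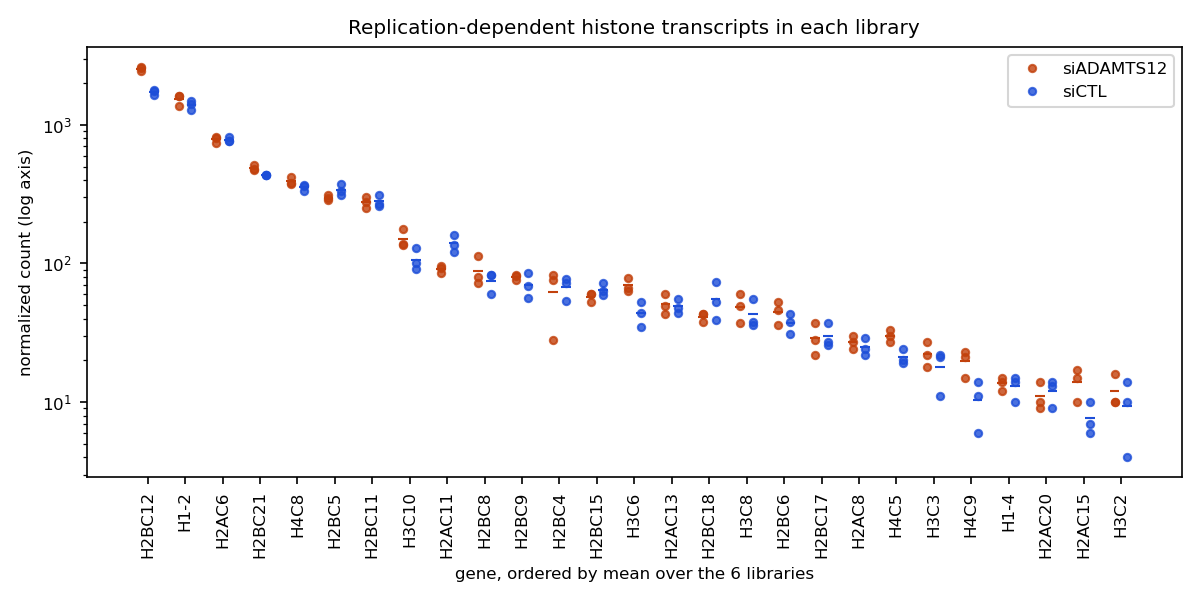
Normalized counts (log axis) of the 27 histone genes kept for testing, 1 column per gene and 1 point per library, siADAMTS12 and siCTL libraries in separate colours. H2BC12 lies highest in every library, and its siADAMTS12 points lie above all its siCTL points, while for most other genes the points of both groups are mixed.

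H2BC12, the H2B gene formerly named HIST1H2BK (ENSG00000197903, chr6:27146418-27146798, minus strand in GENCODE 29), had the highest level and was higher in siADAMTS12 cells. It had 2632, 2557 and 2446 normalized counts in siADAMTS12 libraries, against 1627, 1743 and 1776 in siCTL libraries. The groups did not overlap, and the gap between them was wider than the range within either. The means were 2545 ± 93.6 in siADAMTS12 and 1715 ± 78.3 in siCTL libraries (SD, n = 3 each), a 1.48-fold difference with a log2 fold change of 0.57 ± 0.06 (SE) and a limma adjusted p of 5.65e-05. An exact permutation test of this gene gave p = 0.1, the smallest that 3 against 3 libraries allow. The adjusted p lay between 1.88e-05 and 0.000436 under all 14 alternatives run.

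H2BC12 calls for care over where its reads fall. Its GENCODE 29 model is the coding part alone, 381 bases, while its RefSeq span on GRCh38.p14 covers 8566 bases (chr6:27138293-27146858) with 3 transcripts, so its level cannot be set against other genes per length. The single-exon gene H4C9 (chr6:27139282-27139678, plus strand) lies inside that span on the opposite strand, and the strand setting of the authors' counting is not given in the sources used here. Only 25.9% of the 50-base words of the H2BC12 coding model are unique among annotated transcripts, and 61.4% also occur in H2BS1 (older name H2BFS), a near-identical gene listed at 0 to 2 in these libraries. Its value is therefore uncertain as far as the counting could split or drop reads shared with that copy.

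H1-2 (HIST1H1C), a linker histone gene, was the second in level. It had 1608, 1626 and 1377 normalized counts in siADAMTS12 libraries and 1495, 1421 and 1279 in siCTL libraries. The groups overlapped, and the log2 fold change of 0.14 ± 0.08 (SE) did not pass the test (adjusted p = 0.267). H2AC6 (HIST1H2AC), the highest H2A gene, had 807, 813 and 740 normalized counts in siADAMTS12 and 817, 758 and 769 in siCTL libraries. Its groups overlapped (log2 fold change 0.01 ± 0.07, adjusted p = 0.949), and with an SE of that size a change like that of H2BC12 would lie far outside its error.

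H2BC21 (HIST2H2BE), on chromosome 1, had 517, 476 and 473 normalized counts in siADAMTS12 and 437, 431 and 436 in siCTL libraries. The groups did not overlap, but the log2 fold change of 0.17 ± 0.08 did not pass (adjusted p = 0.155). H4C8 (HIST1H4H), the highest H4 gene, had 380, 417 and 377 in siADAMTS12 and 331, 371 and 359 in siCTL libraries. It too had groups that did not overlap without passing (log2 fold change 0.15 ± 0.09, adjusted p = 0.273). H2BC5 (HIST1H2BD) lay the other way, with 288, 311 and 297 normalized counts in siADAMTS12 and 312, 377 and 334 in siCTL libraries. Its siADAMTS12 libraries were all below the siCTL libraries, and the log2 fold change of -0.19 ± 0.10 did not pass (adjusted p = 0.199). With scaling by the column sum, H2BC21 (adjusted p = 0.0184), H4C8 (0.0380) and H1-2 (0.0363) passed as higher, and none of the 3 passed under any other alternative. That scaling called 24.7% of all genes higher.

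H2BC11 (HIST1H2BJ) had 302, 278 and 253 normalized counts in siADAMTS12 and 261, 311 and 270 in siCTL libraries, with overlapping groups and a log2 fold change of -0.01 ± 0.11 (adjusted p = 0.945). H2BC8 (HIST1H2BG) had 114, 72 and 80 in siADAMTS12 and 83, 82 and 60 in siCTL libraries, and its groups overlapped as well (0.23 ± 0.21, adjusted p = 0.463). H3C10 (HIST1H3H), the highest H3 gene, had 177, 135 and 137 in siADAMTS12 and 129, 100 and 91 in siCTL libraries. Every siADAMTS12 library of H3C10 was above every siCTL library, and its log2 fold change of 0.49 ± 0.17 fell just short of the threshold (adjusted p = 0.0520). With the replicate number as a block H3C10 passed (adjusted p = 0.0115), as it did without siCTL replicate 1 (0.0238), with robust eBayes (0.0452), with a minimum mean of 50 (0.0479) and with scaling by the column sum (0.0196), over a range of 0.0115 to 0.178 across its alternatives.

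H2AC11 (HIST1H2AG) was the only kept histone gene that was called lower. It had 96, 86 and 93 normalized counts in siADAMTS12 libraries, against 121, 136 and 161 in siCTL libraries. The groups did not overlap, and the siCTL libraries were the more spread. The means were 91.7 ± 5.13 in siADAMTS12 and 139 ± 20.2 in siCTL libraries (SD, n = 3 each), a ratio of 0.664 (log2 fold change -0.59 ± 0.15, limma adjusted p = 0.0121). Without siCTL replicate 3 the log2 fold change was -0.48 and the call was lost (adjusted p = 0.0570).

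H3C6 (HIST1H3E) was called higher at a low level. It had 67, 63 and 78 normalized counts in siADAMTS12 libraries, against 44, 53 and 35 in siCTL libraries. All siADAMTS12 libraries were above all siCTL libraries, with means of 69.3 ± 7.77 in siADAMTS12 and 44.0 ± 9.0 in siCTL libraries (SD, n = 3 each), a ratio of 1.58 (log2 fold change 0.66 ± 0.20, limma adjusted p = 0.0330). The call was lost without siADAMTS12 replicate 1 (adjusted p = 0.0652) or 3 (0.126), without siCTL replicate 1 (0.0678) or 3 (0.113), and with no filter on low values (0.0769).

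Of the 27 genes kept, 2 were thus called higher and 1 lower, 11.1%, while 27.0% of all genes tested were called (11.5% higher and 15.5% lower). All 3 called genes were among the 14 with a mean of at least 50, and none of the 13 below that mean was called. The median SE of the log2 fold change was 0.21 over the kept histone genes and 0.09 over all genes, so a change of a given size passed less easily at their levels. Groups did not overlap in 9 of the 27, in 7 with siADAMTS12 higher and in 2 with siADAMTS12 lower, while 40.9% of all genes tested had groups that did not overlap (19.2% with siADAMTS12 higher, 21.7% lower). In both directions together this was 33.3% of the histone genes, below the share among all genes, while with siADAMTS12 higher it was 25.9%, above that share, and with siADAMTS12 lower 7.41%, below it. The last 2 of the 9, named here after their values were seen, were H4 genes. H4C5 had 33, 27 and 30 normalized counts in siADAMTS12 and 20, 24 and 19 in siCTL libraries (log2 fold change 0.50 ± 0.24, adjusted p = 0.155). H4C9 had 21, 23 and 15 in siADAMTS12 and 6, 14 and 11 in siCTL libraries (0.92 ± 0.37, adjusted p = 0.0890). It lies inside the RefSeq span of H2BC12 on the opposite strand, and the strand setting of the counting is not known. Whether its values are separate from those of H2BC12 was not tested.

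**Figure D2:**
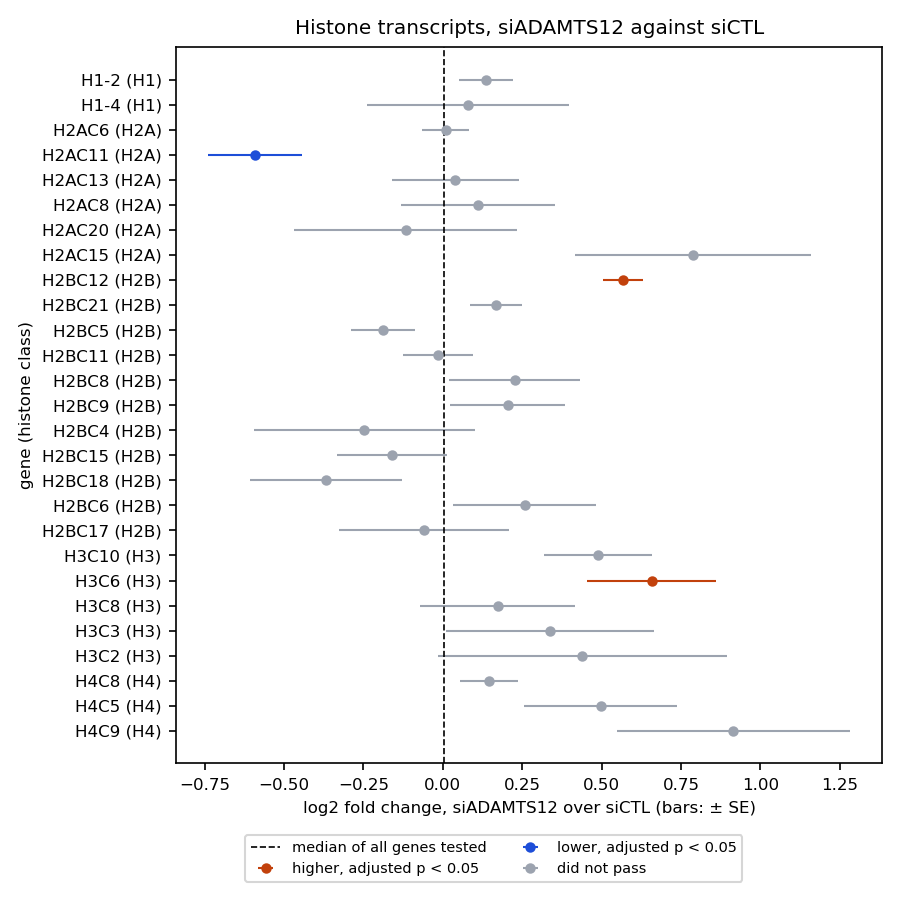
Log2 fold change of siADAMTS12 over siCTL for the 27 kept histone genes, grouped by class, with bars of 1 SE and a dashed line at the median of all genes tested. H2BC12 and H3C6 (called higher) and H2AC11 (called lower) are marked, and the 5 H3 and 3 H4 genes all lie above 0, with wide bars at low levels.

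The log2 fold change was above 0 in 19 of the 27 kept genes, with a median of 0.15 and a range of -0.59 to 0.92. Over all genes tested the median was 0.005, and 50.9% lay above 0. By class, all 5 H3 genes and all 3 H4 genes lay above 0, with medians of 0.44 and 0.50. The H3 median was the value of H3C2 and the H4 median that of H4C5, both at low levels and neither called. None of the 3 H4 genes was called, and H4C8, the H4 gene with the highest level, was at 0.15. Both kept H1 genes lay above 0 too, with a median of 0.11. The 6 H2A genes had a median of 0.02, and the 11 H2B genes a median of -0.02 with 5 above 0 and 6 below. For H3 and H4 the same counts lay above 0, and above the median of all genes, with quantile normalization and with scaling by the column sum. With quantile normalization 1 of the 2 H1 genes and 2 of the 6 H2A genes lay above the median of all genes, against 2 and 4 with the deposited scaling. For H2B 7 of 11 lay above 0 with scaling by the column sum, which moved the median of all genes to 0.129, but 5 of 11 remained above that median. Across the 27 genes the log2 fold change and the mean level had a Spearman correlation of -0.23, a description over genes that share their libraries.

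Summed over all 66 genes, the family had 7619, 7511 and 7000 normalized counts in siADAMTS12 libraries and 6265, 6426 and 6183 in siCTL libraries. The siADAMTS12 sums were all higher, with means of 7377 ± 331 in siADAMTS12 and 6291 ± 124 in siCTL (SD, n = 3 each), a ratio of 1.17. Without H2BC12 the sums were 4987, 4954 and 4554 in siADAMTS12 and 4638, 4683 and 4407 in siCTL libraries. The groups then overlapped, and the ratio of means was 1.06, so H2BC12 made up most of the difference in the sum. By replicate number, each siADAMTS12 sum without H2BC12 was still above the siCTL sum of the same number. Per M (1e6) of each library's column sum, the family came to 238 ± 9.59 in siADAMTS12 and 186 ± 4.85 in siCTL libraries (SD, n = 3 each). That wider gap includes the lower column sums of the siADAMTS12 libraries.

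H2B genes summed to 4157, 4043 and 3896 in siADAMTS12 and 3058, 3293 and 3219 in siCTL libraries, a ratio of 1.26. Without H2BC12 the H2B sums were 1525, 1486 and 1450 in siADAMTS12 and 1431, 1550 and 1443 in siCTL libraries. These groups overlapped, with a ratio of 1.01, so the separation of the H2B sums rested on H2BC12. H3 genes summed to 342, 300 and 306 in siADAMTS12 and 248, 241 and 213 in siCTL libraries, a ratio of 1.35. H4 genes summed to 462, 494 and 447 in siADAMTS12 and 389, 442 and 416 in siCTL libraries. The groups of H3 and of H4 did not overlap. H1 sums were 1638, 1657 and 1396 in siADAMTS12 and 1521, 1452 and 1298 in siCTL libraries, and H2A sums were 1020, 1017 and 955 in siADAMTS12 and 1049, 998 and 1037 in siCTL libraries. The groups of both overlapped. By replicate number, each H1 sum was higher in siADAMTS12, whereas the H2A sums went both ways.

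**Figure D3:**
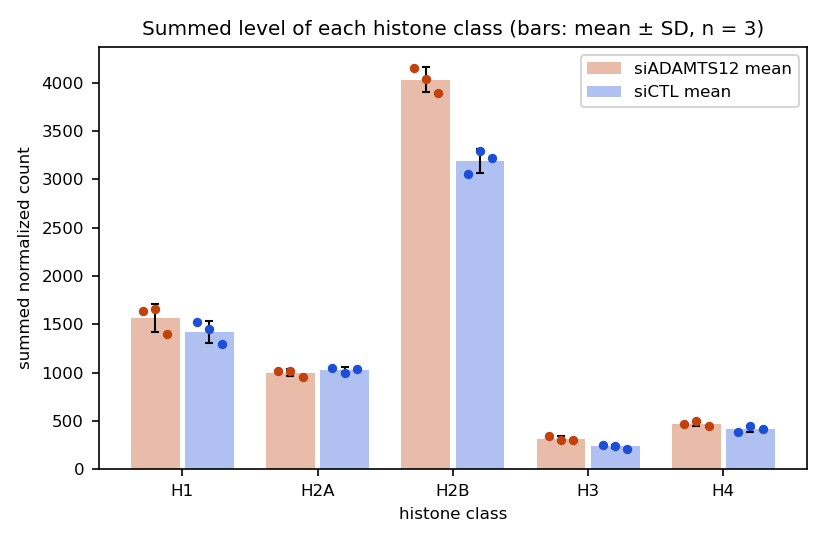
Summed normalized counts of the genes of each histone class, siADAMTS12 bars left of siCTL bars, as mean with SD (n = 3) and 1 point per library. H2B, which includes H2BC12, stands highest, at 4032 in siADAMTS12 and 3190 in siCTL, and H1 and H2A points of both groups overlap.

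RNAs that end without a poly(A) tail (7SL, 7SK, small nuclear, small nucleolar and Cajal body RNAs and their copies) give only a partial view of how selective the libraries were. They summed to 1428, 1520 and 1775 normalized counts in siADAMTS12 libraries and to 1292, 1338 and 1714 in siCTL libraries. The groups overlapped, and replicate 3 was the highest of both, whereas the histone sum was lowest in replicate 3 of both. Within them, 7SK and its copies had 48, 64 and 51 in siADAMTS12 and 29, 29 and 40 in siCTL libraries, and these groups did not overlap (ratio 1.66). 7SL and its copies had 249, 301 and 501 in siADAMTS12 and 237, 215 and 311 in siCTL libraries, with overlapping groups (ratio 1.38). Both ratios lay in the direction of the histone sum. RMRP and RPPH1 were listed at 0 in every library. The sum over all these RNAs covers 3242 rows, 680 of them 7SL and its copies, and the counting could split or drop reads that copies share. A low sum therefore need not mean strict selection. The part of leftover unselected RNA in the histone values was not tested.

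Genes whose GENCODE 29 model continues well past the coding part were the ones most often found in these poly(A) libraries. Of 22 genes with a model that holds 200 or more bases after the coding part, stop codon included, 17 (77.3%) were kept and the median level over the 22 was 58.9. Of 10 with a shorter run past the stop codon, 3 were kept, with a median of 4.5. Of 32 whose model is the coding part only, 5 (15.6%) were kept, with a median of 1.5. H2BC12 and H1-2 belong to that last group and hold nearly all of its 54.2% share of the family's level. The level and the annotated run after the coding part had a Spearman correlation of 0.47 over 64 genes, and the level and the share of unique 50-base words one of 0.11. These are descriptions with no test: the genes share their libraries, a longer model gathers more reads, and reads past a model's end were not counted for that gene if the authors' annotation had the same models.

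**Figure D4:**
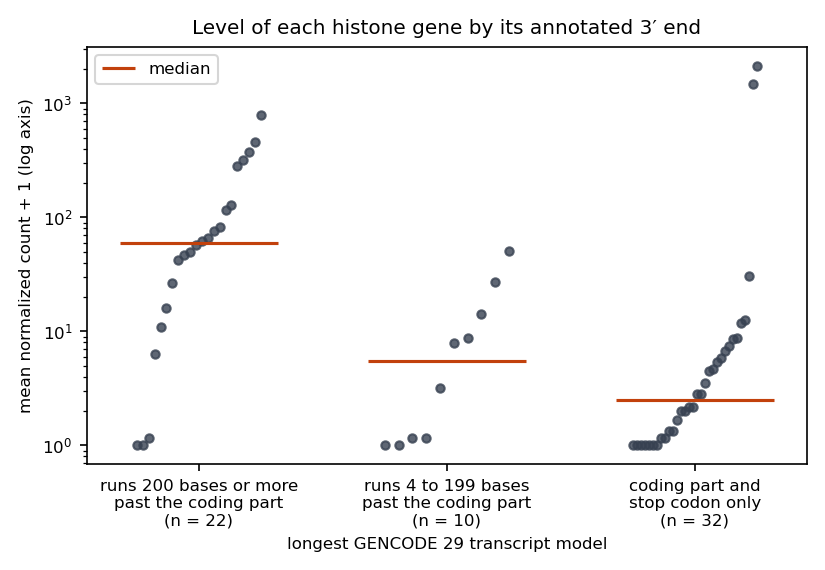
Mean normalized count over the 6 libraries (log axis) of each histone gene by the 3′ end of its GENCODE 29 model, with the median of each group as a line. The medians are 58.9 for models with a long 3′ end, 4.5 for a short one and 1.5 for the coding part only, and H2BC12 and H1-2 stand far above the rest of the coding-only group.

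Set per kilobase of annotated exon, the mean level was 470 for H2AC6, 367 for H2BC5, 294 for H2BC11, 210 for H2BC21, 172 for H4C8 and 104 for H3C10 on GENCODE 29 models, all with a long annotated 3′ end. H1-2 came to 2287 on its 642-base coding model. The order depends on the annotation, and that of the authors is not known. On the RefSeq spans of the genes with a single RefSeq transcript, which end near the stem-loop in H2AC6, H4C8 and H3C10, the level per kilobase was 2008 for H1-2, 1511 for H2AC6, 911 for H4C8, 582 for H2BC11, 264 for H3C10 and 208 for H2BC21. Among the genes given here H1-2 led in both, with H2BC12 left out because its level cannot be set per length. On its 381-base coding model alone H2BC12 would come to 5591. By place in the genome, the 9 kept genes of the part of the chromosome 6 cluster nearer the centromere held H2BC12 (called higher) and H2AC11 (called lower). The 13 nearer the tip of the short arm held H3C6 (called higher), and none of the 3 on chromosome 1 was called. These groups leave out H3C2 and H3C3, which are not in GENCODE 29. RefSeq places both in the part nearer the tip (chr6:26031589 and chr6:26045384), and neither was called. Beside the 27.0% of all genes called, counts this small say nothing of the location.

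The siRNA itself can pair with other mRNAs through guide positions 2 to 8, as microRNAs do through their seed. The matching letters in an mRNA are GAGGGAA. They were found in the annotated 3′ UTR of 3 of the 25 kept genes with a transcript model. For 5 of the 25, H2BC12 and H1-2 among them, the model is the coding part only, so no 3′ UTR could be searched. The sites are shown because 1 of the 3 genes that hold them is the one called lower. The sequences are on GRCh38, with the 7 matching bases in capitals.
H2AC11 first site (chr6:27133657-27133681, plus strand): gaaaaactaGAGGGAAggtggtcca
H2AC11 second site (chr6:27134321-27134345, plus strand): cacagatagGAGGGAAaatatatag
H2BC8 (chr6:26215515-26215539, minus strand): tttgttgtgGAGGGAAtaccatggg
H2BC18 (chr1:149811634-149811658, minus strand): ggagggatgGAGGGAAggaggcggg
All 4 lie past the last base of the stem-loop, by 136 and 800 bases in H2AC11, 688 in H2BC8 and 236 in H2BC18, so a transcript that ends at the stem-loop does not hold them. The second H2AC11 site is followed by an A. H2AC11 was called lower, as given above. H2BC18 had 38, 43 and 43 normalized counts in siADAMTS12 and 53, 39 and 74 in siCTL libraries, with overlapping groups (log2 fold change -0.37 ± 0.24, adjusted p = 0.289). H2BC8 had groups that overlapped, with a log2 fold change of 0.23. With 3 genes, no pattern can be read, and the part of such pairing in the fall of H2AC11 was not tested.

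The promoters of the family share letters that most promoters lack. RefSeq promoters (GRCh38.p14, 250 bases before to 50 after the start site) were matched for 61 of the 66 genes and for 27305 genes of the table, and were searched on both strands for motifs of which none contains another. The CCAAT box letters CCAAT were in 85.2% of the histone promoters and 39.7% of all promoters, and TATAAA in 68.9% and 14%. The octamer letters ATTTGCAT, which the factor OCT1 (POU2F1) binds at H2B genes, were in 42.6% and 2.19%. They were in 14 of 17 H2B and 11 of 15 H2A promoters, but in 1 of 11 of H3 and in none of the 6 of H1 or the 12 of H4. Some H2A and H2B genes start close together on opposite strands, such as H2BC11 (chr6:27132795) and H2AC11 (chr6:27133043), or H2BC4 and H2AC6. Their windows overlap, so the same letters can be counted for both genes, and the H2A and H2B counts are not independent. CCAAT was in every promoter searched of H1, H2A, H2B and H3, and in 3 of 12 of H4. The letters TGACGT, also searched, were in 26.2% of the histone promoters and 9.64% of all promoters. H2BC12 (called higher) and H2AC11 (called lower) both held every motif searched, and H3C6 held CCAAT and TATAAA but not the others. A match is a description of letters in the window and not of binding.

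Of 23 genes that make, translate and degrade histone mRNA, all kept, 3 rose and 3 fell, 26.1% against 27.0% of all genes, with a median log2 fold change of -0.04. SLBP, the stem-loop binding protein, had 3942, 4182 and 4495 normalized counts in siADAMTS12 and 3996, 4557 and 4124 in siCTL libraries, with overlapping groups (log2 fold change -0.01 ± 0.07, adjusted p = 0.965). NPAT, the cyclin E/CDK2 substrate that activates histone transcription, had 970, 1176 and 1041 in siADAMTS12 and 1143, 1215 and 1162 in siCTL libraries, and also did not pass (-0.15 ± 0.08, adjusted p = 0.201). The other 21 include all 6 that were called. Those that fell included NCBP2, the small subunit of the nuclear cap-binding complex (-0.55 ± 0.07, adjusted p = 8.72e-05), and TUT7, a terminal uridylyltransferase (-0.43 ± 0.07, adjusted p = 0.000682). Those that rose included CPSF1, a subunit of the cleavage and polyadenylation factor (0.26 ± 0.06, adjusted p = 0.00872), and ERI1, the exonuclease that trims the stem-loop (0.43 ± 0.11, adjusted p = 0.0104). CPSF2 also fell (-0.258 ± 0.068, adjusted p = 0.0153), and LSM11 also rose (0.335 ± 0.102, adjusted p = 0.0310).

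The replication-independent histone genes, most of which give polyadenylated mRNAs and are not tied to S phase, stood far above the replication-dependent ones. The summed level of the replication-dependent genes was 11.2% to 12.4% of theirs in siADAMTS12 libraries and 10.0% to 10.4% in siCTL libraries. Of 12 such genes 11 were kept, 2 rose and 1 fell, 27.3% against 27.0% of all genes. H1-10, a linker histone variant, had 3860, 3291 and 4854 normalized counts in siADAMTS12 and 1990, 2647 and 1906 in siCTL libraries (log2 fold change 0.87 ± 0.14, adjusted p = 0.000917). Its groups did not overlap. CENPA, the centromeric H3 variant, fell (-0.37 ± 0.09, adjusted p = 0.00754; 0.0535 with scaling by the column sum). H2AX, the variant phosphorylated at DNA breaks, whose mRNA is known in a stem-loop form and in a polyadenylated form, had 6192, 6734 and 7030 in siADAMTS12 and 4393, 6524 and 4617 in siCTL libraries. It was called higher (0.38 ± 0.12, adjusted p = 0.0405), but the groups overlapped and 6 of 14 alternatives lost the call: no filter on low values (adjusted p = 0.0795), robust eBayes (0.0927), and leaving out siADAMTS12 replicate 2 (0.0802) or 3 (0.123) or siCTL replicate 1 (0.137) or 3 (0.151).

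Of 23 histone chaperone and import genes, 21 were kept, 2 rose and 5 fell, 33.3% against 27.0% of all genes, with a median log2 fold change of 0.002. SSRP1, a subunit of the FACT chaperone (-0.59 ± 0.07, adjusted p = 8.02e-05), RBBP4, a histone-binding subunit of CAF-1 (-0.39 ± 0.06, adjusted p = 0.000380), and DNAJC9, a histone co-chaperone (-0.44 ± 0.07, adjusted p = 0.000613), fell. TONSL, a reader of newly made histones, rose (0.50 ± 0.07, adjusted p = 0.000238).

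Of 48 S phase genes, all kept, 5 rose and 9 fell, 29.2% against 27.0% of all genes, with a median of -0.02. CCNE1, the cyclin E gene, had 860, 948 and 907 normalized counts in siADAMTS12 and 370, 381 and 401 in siCTL libraries (log2 fold change 1.23 ± 0.08, adjusted p = 8.99e-07). FEN1, the flap endonuclease of lagging-strand synthesis, also rose (0.97 ± 0.07, adjusted p = 1.21e-06). POLA1, the catalytic subunit of DNA polymerase alpha (-0.48 ± 0.06, adjusted p = 0.000188), and CDC6, a replication licensing factor (-0.43 ± 0.07, adjusted p = 0.000944), fell. In bulk RNA a change in the share of cells in S phase and a change in RNA per cell cannot be told apart.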

How the data were processed

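Poly(A) RNA of 6 LX-2 libraries, 3 per group, was sequenced. Reads were processed with STAR, HTSeq and DESeq2 on GRCh38, per the submitters' processing notes. Versions, annotation, strand setting and size factors were not given in the sources used here. Values in the deposited table are taken as a score: the authors' normalized counts, written as whole numbers, per the name of the deposited table. They are not raw counts, so no count model was fitted. The number of reads limits the precision and is unknown.

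Genes with a mean of at least 10 were kept (15637 of 60669). Values were analysed as log2(value + 1), which understates fold changes of low genes. limma 3.58.1 in R 4.3.3 (lmFit, eBayes with trend) was run on the 6 libraries with a term for group alone. P-values are 2-sided, adjusted by Benjamini-Hochberg over all genes kept, with a threshold of 0.05, and each fold change is of siADAMTS12 over siCTL, given with limma's moderated SE. The fit was also run on simulated counts drawn independently for each library. These held no deviation shared by replicate number, so that run does not measure the error rate in these data. The members and lists were chosen with earlier results of these data known. Histone genes given with every library's value are the 10 with the highest mean and every one called, plus H4C5, H4C9, H2BC18 and H2BC10, chosen after their values were seen. In the lists, SLBP, NPAT and up to 4 called genes with the smallest adjusted p are named. CPSF2 and LSM11, also called, are named beyond that rule. Lists hold genes of histone mRNA metabolism, replication-independent histones, chaperones, S phase, stellate cells and other liver cells.

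Libraries with the same number shared part of their deviation from the group mean, with correlations of 0.367, 0.135 and 0.133 across genes, against -0.193 to 0.0632 for other pairs, so the replicate number was also fitted as a block. Other alternatives were the pseudocount (8, 0.5), the filter (none, 50), quantile normalization, scaling by the column sum, robust eBayes and each library left out. Models, stem-loops and 50-base words come from GENCODE 29 transcripts matched by Ensembl ID, and promoters from RefSeq GRCh38.p14. Python 3.11.15, numpy 2.4.6, pandas 2.3.3, scipy 1.17.1 and matplotlib 3.10.9 were used.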

Additional observations from a re-analysis of the deposited data

How the results depend on the processing

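H2BC12 was called higher under all 14 alternatives. With 2 histone genes called higher and 1 lower, the counts were 1 higher and 2 lower with no filter on low values, where H2BC10 (0 in all siADAMTS12 libraries, 2, 2 and 3 in siCTL libraries) was added and H3C6 lost, and 7 higher and 1 lower with scaling by the column sum, where H2BC21, H3C10, H1-2, H4C8 and H4C9 were added. Leaving out each library in turn gave 1 to 2 higher and 0 to 1 lower. The replicate block gave 3 higher and 1 lower, with H3C10 added, as did robust eBayes and a minimum mean of 50. The paired fit with the block called 35.1% of all genes.

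Over all genes, 1798 were called higher and 2424 lower. Scaling by the column sum gave 3869 higher and 1546 lower, so that 71.4% of calls were higher against 42.6% with the deposited scaling. The median log2 fold change of all genes was then 0.129, and H2BC12 lay 0.565 above it, against 0.564 above the median with the deposited scaling. The log2 ratio of the summed histone level, 0.23, was 0.354 with that scaling and 0.078 without H2BC12, an alternative chosen after seeing the data.

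Of 406 values for 29 named genes, 374 kept direction and side of the threshold, 13 lost the call, 8 gained it and 11 turned direction, all 11 in genes that were not called. H2AC6 ran between -0.015 and 0.053 with each library left out. H2BC11 was 0.109 with scaling by the column sum and ran between -0.077 and 0.061 with each library left out. SLBP was 0.087 with quantile normalization, 0.118 with scaling by the column sum, and between -0.055 and 0.049 with each library left out. The cause of these changes was not tested.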
